A study of Mus musculus with 2 samples.

Results

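The Arp2/3 complex and the cytoplasmic actins are followed here through interstitial cells of the infarcted mouse ventricle. The genes are the 8 Arp2/3 subunit genes Arpc1a, Arpc1b, Arpc2, Arpc3, Arpc4, Arpc5, Actr2 and Actr3 and the actin genes Actb and Actg1. These 10 genes were taken by symbol from 22 deposited tables, of which 18 compare cell clusters and name 6477 distinct genes, and 4 compare fibroblast subclusters and hold 15059 genes each. They were chosen from values of these same tables, because Arpc1b was lower in many clusters, and the question asked was whether the other subunits followed it. Single-cell RNA sequencing had been run on 1 library from PostnMCM control hearts and 1 library from Yapfl/fl;Wwtr1fl/+;PostnMCM hearts of adult mice. In PostnMCM mice a tamoxifen-inducible Cre (MerCreMer) is made only in cells that express Postn, the gene of the matrix protein periostin, so deletion is aimed at myofibroblasts and not at leukocytes. Both strains carried the R26-eGFP reporter, and once infarcted both were fed tamoxifen in chow at 0.4 g/kg. In the second library both Yap1 alleles but only 1 of the 2 Wwtr1 (TAZ) alleles were floxed. Per the labels hearts were taken 6 days after myocardial infarction (MI), while the study's text gives the following day. The number of hearts behind each library is not given in the sources used here.

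With 1 library per group there is no replicate and no test, and every value below describes these 2 libraries alone. The authors' deposited log2 fold change compares mean corrected counts, each raised by 1 before taking log2, and is signed so that a value below 0 is lower in the library labelled Yap/Wwtr1-depleted than in the control library. The deposited share is the percent of a cluster's cells with a corrected count. Cluster tables list a gene only where its log2 fold change is at least 0.25 in size and 25% or more of the cells of a library hold it, and a gene that is not listed has no value there. Subcluster tables carry no such limits. The tables do not give the number of cells or the counts per cell of each cluster, so no interval was computed. Seurat numbers clusters from the most to the fewest cells, so the high-numbered clusters, such as 17 and 18, are the smallest and their values the least precise. Of the targeted transcripts, Yap1 was above 0 in all 4 subclusters (0.07, 0.31, 0.04 and 0.26 in subclusters 0, 3, 4 and 5), and Wwtr1, with 1 floxed allele, was at 0.15 in subcluster 0 and below 0 in the other 3 (-0.30, -0.21 and -0.16). By share of cells Yap1 was higher in 3 subclusters and lower in subcluster 4, at 57.5% of control cells and 40% of the others. No cluster table lists either gene. Counts of a 3′ library can persist when an upstream exon is lost, so this check is weak. As the Yap1 log2 fold change was not below 0, the second library is named by its label throughout, as labelled depleted.

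The Arp2/3 complex nucleates new actin filaments as branches on the side of existing ones, and so builds the meshwork that drives lamellipodia, phagocytic cups and leukocyte migration. Actr2 and Actr3 encode the actin-related proteins Arp2 and Arp3, which mimic the end of a filament, Arpc2 and Arpc4 encode the scaffold that grips the mother filament, and Arpc1a or Arpc1b, Arpc3 and Arpc5 complete the complex. Arpc1b is the Arpc1 form that predominates in blood cells. Actb and Actg1 encode β- and γ-actin, the actins of non-muscle cells. Free actin monomer holds back MRTF, a coactivator of serum response factor, and filament tension favours nuclear YAP and TAZ, which act on DNA through TEAD factors. Every nucleated cell uses these genes, so no cluster serves as a cell type that should lack them.

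Promoter sequence of 9 of the 10 genes matched the RefSeq table (build GRCm38.p6), all but Actb. Both strands of the 250 bases before each start were searched for the TEAD core GGAATG, written CATTCC on the other strand, and for the CArG box, the site of serum response factor. The TEAD core was in 1 of the 9, Arpc2, where it starts 204 bases before the gene's start, against 12.6% of all 32851 promoters. The CArG box was in 2 of the 9, Actg1 and Arpc4, starting 90 and 250 bases before the start, against 1.47% of all promoters. The 2 motifs share no letters in these windows. Shown 5′ to 3′ on the strand of the gene are the windows of Arpc1b, the subunit most often lower, with no match, at chr5:145114006-145114255 on the plus strand; of Arpc2, the next most often lower, at chr1:74236267-74236516 on the plus strand; and of Actg1, the actin with the widest spread of values, at chr11:120348496-120348745 on the minus strand. Capitals mark the matched motif, which is a description and not evidence of binding.
Arpc1b: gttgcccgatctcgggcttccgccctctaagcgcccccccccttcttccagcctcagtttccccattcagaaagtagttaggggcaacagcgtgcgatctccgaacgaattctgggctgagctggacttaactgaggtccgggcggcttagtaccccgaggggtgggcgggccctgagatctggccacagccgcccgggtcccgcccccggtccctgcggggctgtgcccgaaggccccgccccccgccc
Arpc2: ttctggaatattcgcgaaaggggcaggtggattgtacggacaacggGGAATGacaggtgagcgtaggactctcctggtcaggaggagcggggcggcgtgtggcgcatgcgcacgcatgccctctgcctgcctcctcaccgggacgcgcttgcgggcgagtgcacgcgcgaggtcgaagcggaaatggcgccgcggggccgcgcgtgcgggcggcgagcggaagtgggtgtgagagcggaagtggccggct
Actg1: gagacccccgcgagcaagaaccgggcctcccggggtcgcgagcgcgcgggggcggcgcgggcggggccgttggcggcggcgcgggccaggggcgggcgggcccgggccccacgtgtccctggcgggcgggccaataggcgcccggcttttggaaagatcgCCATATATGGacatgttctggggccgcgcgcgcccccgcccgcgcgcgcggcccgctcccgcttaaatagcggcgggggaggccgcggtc

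In the genome of the files' build (GRCm39, GENCODE annotation) Arpc1a and Arpc1b lie next to each other on the plus strand of chromosome 5, at chr5:145020600-145045572 and chr5:145051025-145067515. Arpc3 (chr5:122529941-122552247, plus strand) and Actb (chr5:142888870-142892509, minus strand) are on the same chromosome. Arpc2 (chr1:74272190-74307373) and Arpc5 (chr1:152642292-152651348) are on the plus strand of chromosome 1 and Actr3 (chr1:125320633-125363637) on its minus strand. Arpc4 is at chr6:113355059-113367409 on the plus strand, and Actr2 (chr11:20012300-20063049) and Actg1 (chr11:120236512-120239617) are on the minus strand of chromosome 11. All 10 are protein-coding, and counts of a 3′ library come mainly from their last exons.

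Over the 18 cluster tables the 10 genes were listed 47 times out of 180 gene and table pairs, 31 times lower and 16 times higher in the library labelled depleted. Pooled over the tables, subunits were more often lower and actins more often higher, which was not tested. Arp2/3 subunits were listed 28 times lower and 8 times higher (77.8% lower, median -0.31, range -0.63 to 0.41), and the actins 3 times lower and 8 times higher (27.3% lower, median 0.33, range -0.43 to 0.68). Of the subunits' lower listings 9 are those of Arpc1b, for which the set was chosen, and the other 7 subunits were listed 19 times lower and 8 times higher (70.4% lower). Of the 7 tables that list both kinds, subunits and actins had 1 direction in 4 (clusters 5, 7, 13 and 14). Subunits went both ways in 2 (9 and 15), and the kinds were opposite in 1 (11). Clusters 5 and 14 list only a single subunit and a single actin each, and no such count was made for other genes. Most of these listings were close to the limit of size: the subunits had 2 lower and 0 higher listings at a limit of 0.5, and 7 lower and 5 higher after subtracting the median of each table's listed genes. Over all 15431 listings of all genes, 52.3% were lower. The genes here are detected in most cells, and among listings of genes found in 90% or more of the cells of a library 58.9% were lower. The sizes were ordinary, with a median of 0.33 for the 10 genes and 0.35 for all listings.

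**Figure D1:**
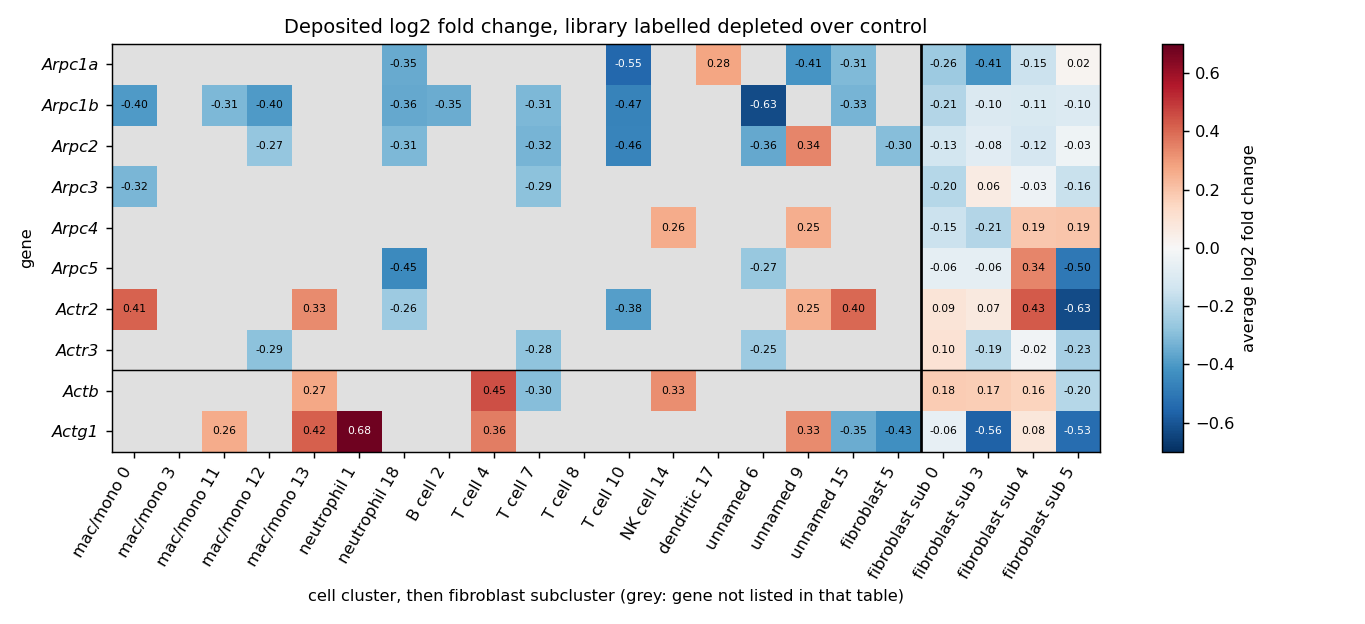
Deposited average log2 fold change (colour and number) of each of the 10 genes (rows, subunits above the line, actins below) in the 18 cell clusters and, right of the vertical line, the 4 fibroblast subclusters (columns). Blue marks genes lower in the library labelled depleted, grey cells are genes that a cluster table does not list, and Arpc1b has 9 lower and 0 higher listings while the actins have 3 lower and 8 higher.

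Arpc1b, the form of the p41 subunit that blood cells use most, was listed lower in 9 of the 18 cluster tables and higher in none. That count is what the gene was chosen for; of all 6477 genes listed anywhere, 0.618% were lower in at least 9 tables. Of the genes listed in at least 9 tables, 24.8% were lower in every one of theirs. Among macrophage and monocyte clusters, Arpc1b had a count in 99.8% of control cells and 99.7% of cells of the library labelled depleted in cluster 0, with a log2 fold change of -0.40. In clusters 11 and 12 it was in 100% of cells of both libraries, with log2 fold changes of -0.31 and -0.40. These differences were thus differences in level among cells that nearly all held the transcript.

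In B cells (cluster 2) 99.5% of control cells and 97% of cells of the library labelled depleted had an Arpc1b count, and the log2 fold change was -0.35. Among T cells the shares were 100% and 99.4% in cluster 7 (-0.31) and 100% and 84.4% in cluster 10 (-0.47). The lowest value was in cluster 6, left unnamed here, where the share went from 88.9% of control cells to 78.3% and the log2 fold change was -0.63. It was the 1 table in which Arpc1b passed a size of 0.5. In the neutrophil cluster 18 and in cluster 15, also unnamed here, 100% of cells of both libraries held it, with log2 fold changes of -0.36 and -0.33. The share of cells was lower in 5 of the 9 tables and 100% in both libraries in the other 4. The study describes clusters 6, 9 and 10 as coming mostly from the library labelled depleted, so their control values rest on fewer cells, and without these 3 clusters Arpc1b was lower in 7 tables.

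Whether the other subunits followed was read from the tables with and without an Arpc1b listing. In the 9 tables that list Arpc1b lower, the other 7 subunits fill 63 gene and table pairs, of which 17 were listed lower, 2 higher and 44 not at all. Lower listings were thus 89.5% of those listed, where all genes of the same tables gave 53.4% and their genes in 90% or more of cells 60.7%. These listings too were near the limit, and came to 4 lower and 1 higher after centring on each table's median and to 1 and 0 at a limit of 0.5. At least 1 other subunit was lower in 7 of the 9 tables, all but clusters 2 and 11. Both higher listings were Actr2, in clusters 0 and 15. In the 9 tables that do not list Arpc1b, the same 7 genes were lower 2 times and higher 6 times, with 55 pairs not listed, so that 25% of listings were lower against 51.2% over all genes of those tables. For genes in 90% or more of cells that share was not computed there. The 25% rests on 8 listings, among them Arpc1a lower and Arpc2, Arpc4 and Actr2 higher in cluster 9 alone, whose control values rest on fewer cells. The 2 lower ones were Arpc2 in cluster 5 and Arpc1a in cluster 9. Most pairs were unlisted in both sets, so for most subunits in most clusters the difference was under 0.25 or its gene under the limit of detection.

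Arpc1a, the other form of the same subunit, was found in fewer cells and was listed 4 times lower and 1 time higher. Its share went from 52.9% of control cells to 31.7% in cluster 9 (log2 fold change -0.41), from 81.8% to 50% in T cell cluster 10 (-0.55) and from 50% to 27.3% in cluster 15 (-0.31). In neutrophil cluster 18 it went from 45.5% to 23.5% (-0.35). Dendritic cluster 17 was the exception, at 35% of control cells and 63.6% of cells of the library labelled depleted (0.28). Both forms were listed lower together in 3 tables, clusters 10, 15 and 18, and no table listed them in opposite directions.

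**Figure D2:**
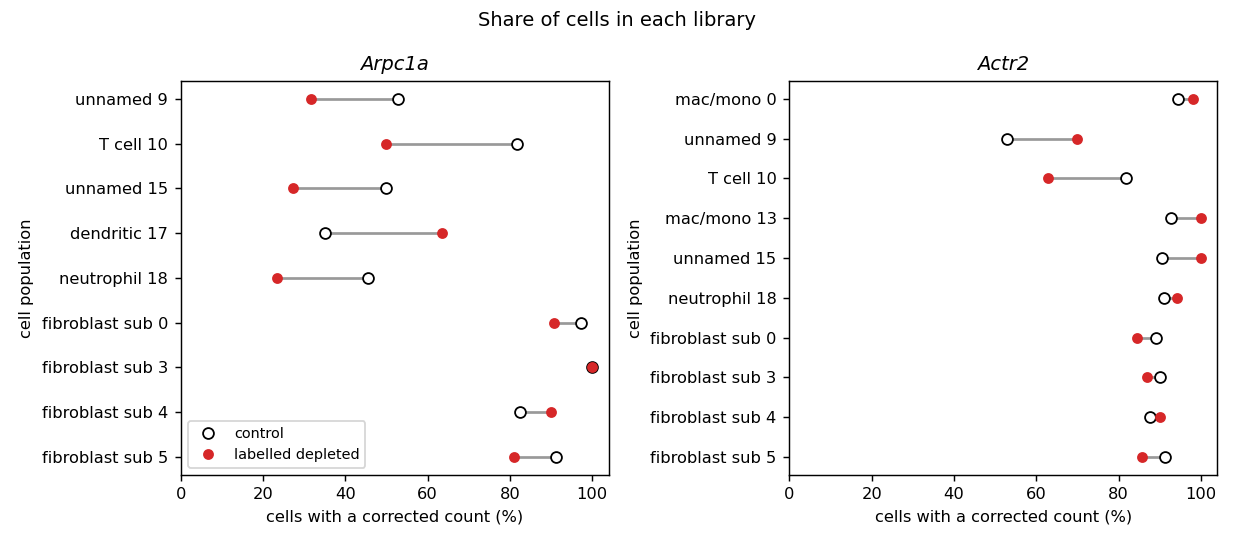
Share of cells with a corrected count (horizontal axis, percent, from 0) for Arpc1a (left) and Actr2 (right) in the control library (open circles) and the library labelled depleted (filled circles), for each table that lists the gene and for the 4 fibroblast subclusters. Arpc1a has the lower share in the library labelled depleted in 4 of its 5 cluster tables, and Actr2 the higher share in 5 of its 6.

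The scaffold gene Arpc2 was listed 6 times lower and 1 time higher. It was in 100% of cells of both libraries in clusters 12 and 18, with log2 fold changes of -0.27 and -0.31. The shares of control cells and cells of the library labelled depleted were 97.3% and 95.2% in fibroblast cluster 5 (-0.30), 96.3% and 94.1% in cluster 6 (-0.36), 100% and 98.7% in cluster 7 (-0.32) and 100% and 93% in cluster 10 (-0.46). All of these but cluster 5 also list Arpc1b lower. Cluster 9 went the other way, from 88.2% to 96.3% (0.34). Its partner in the scaffold, Arpc4, was listed 2 times and both times higher, from 58.8% to 67.2% of cells in cluster 9 (0.25) and from 88.6% to 100% in natural killer cluster 14 (0.26).

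Arpc3 and Arpc5, small subunits of the complex, were each listed 2 times, lower each time and in tables that also list Arpc1b. Arpc3 was in 99.8% of control cells and 98.7% of cells of the library labelled depleted in cluster 0 (-0.32), and in 98% and 96.2% in cluster 7 (-0.29). Arpc5 was in 81.5% and 70.4% of cells in cluster 6 (-0.27) and in 100% and 94.1% in cluster 18 (-0.45).

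The genes of the 2 actin-related proteins were listed in different tables. Actr3 was listed 3 times, each time lower: from 96.3% to 87.9% of cells in cluster 6 (-0.25), from 99% to 98.1% in cluster 7 (-0.28) and in 100% of cells of both libraries in cluster 12 (-0.29). Actr2 was listed 4 times higher and 2 times lower. Its share was 94.5% of control cells and 98% of cells of the library labelled depleted in cluster 0 (0.41), 92.6% and 100% in macrophage and monocyte cluster 13 (0.33), 90.6% and 100% in cluster 15 (0.40) and 52.9% and 69.8% in cluster 9 (0.25). The lower listings were T cell cluster 10, from 81.8% to 62.9% (-0.38), and neutrophil cluster 18, from 90.9% to 94.1% (-0.26), where the share and the mean went in opposite directions. In clusters 0 and 15 Actr2 was higher while Arpc1b was lower.

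Actin transcripts were in nearly all cells everywhere. Of 19 values of Actb and Actg1 over all tables, 17 had 100% of cells in both libraries, and the lowest share was 99.5%, so their differences were in level and not in the share of cells. Actb was listed higher in T cell cluster 4 (log2 fold change 0.45), cluster 13 (0.27) and natural killer cluster 14 (0.33), and lower in T cell cluster 7 (-0.30). Actg1 was higher in neutrophil cluster 1 (0.68), cluster 4 (0.36), cluster 9 (0.33), cluster 11 (0.26) and cluster 13 (0.42), and lower in fibroblast cluster 5 (-0.43) and cluster 15 (-0.35). Both actins were listed together in clusters 4 and 13, higher in each.

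By cell type, the macrophage and monocyte clusters were not uniform. Cluster 0 had Arpc1b and Arpc3 lower and Actr2 higher. There 38.4% of all listed genes were lower, but 67.9% of genes in 90% or more of cells, as these members are. Brackets here and in the paragraphs on other clusters give both percents in this order. Cluster 12 had Arpc1b, Arpc2 and Actr3 lower (53.1% and 73.1%) and cluster 11 Arpc1b lower and Actg1 higher (53.5% and 36.3%). Cluster 13 had Actr2, Actb and Actg1 higher and none lower (40.9% and 57.4%), and cluster 3 listed none of the 10 (39.6% and 59.1%).

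Neutrophils fell into a large and a small cluster. In cluster 18, the small one, the 5 subunits Arpc1a, Arpc1b, Arpc2, Arpc5 and Actr2 were lower, the most subunits in any table. Of all its genes 61.9% were lower, and 64.4% of those in 90% or more of cells. Cluster 1 listed Actg1 alone, higher, with 41.3% of all genes lower and 55.2% of those in 90% or more of cells. Arpc1b was the 1 gene of the 10 listed in B cell cluster 2 (56% and 65.4%).

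T cell clusters split as well. Cluster 7 had Arpc1b, Arpc2, Arpc3, Actr3 and Actb lower and none higher, and it also had the highest share of all genes lower, 70.8%. Of its genes in 90% or more of cells 74.7% were lower. Cluster 10 had Arpc1a, Arpc1b, Arpc2 and Actr2 lower. There 46.3% of all genes were lower, and 48% of those in 90% or more of cells. Cluster 4 had both actins higher. There 31.8% of all genes were lower, but 67.3% of those in 90% or more of cells, as the actins are. Cluster 8 listed none of the 10 (39.2% and 58.8%). Natural killer cluster 14 had Arpc4 and Actb higher (49.1% and 63.5%) and dendritic cluster 17 Arpc1a higher (58.6% and 38.5%).

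Of the clusters left unnamed, cluster 6 had Arpc1b, Arpc2, Arpc5 and Actr3 lower. There 63.3% of all genes were lower, and 64.6% of those in 90% or more of cells. Cluster 9 had Arpc1a lower but Arpc2, Arpc4, Actr2 and Actg1 higher, although more of its genes were lower (63.7% and 65.7%). Cluster 15 had Arpc1a, Arpc1b and Actg1 lower and Actr2 higher (52.7% and 56%). In all, 7 tables listed these genes in the lower direction only, 5 in the higher direction only, 4 in both and 2 not at all.

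Fibroblasts hold the cells in which the Cre driver is active, but not all of them had a count of Postn, the driver gene. It was in 25.5% of control cells and 28.1% of the others in subcluster 0, and in 40% and 13% in subcluster 3. In subcluster 4 it was in 10% and 20%, and in subcluster 5 in 87% and 100%. The fibroblast table, cluster 5, listed Arpc2 and Actg1, both lower. There 56.7% of all genes were lower, and 68% of those in 90% or more of cells. Arpc1b is not listed there. The study describes subclusters 0 and 4 as coming mostly from control hearts and subclusters 3 and 5 as holding cells of both, so values of the library labelled depleted in subclusters 0 and 4 rest on fewer cells, and subclusters 1 and 2, each mostly from 1 of the libraries, were not analysed here. The values of Arpc1b in the 4 subclusters, from tables that the authors normalized separately, were -0.21, -0.10, -0.11 and -0.10 in subclusters 0, 3, 4 and 5, with 100% of cells of both libraries holding it in each. Among genes found in 25% or more of the cells of a library (called detected genes below) these values were at the 13.7th, 34.1st, 33.7th and 39.7th percentile. Arpc1b and Arpc2 were the members of the set below 0 in all 4 subclusters, as were 9.53% of all genes detected in all 4. Arpc2 was at -0.13, -0.08, -0.12 and -0.03 in subclusters 0, 3, 4 and 5, also in 100% of cells throughout.

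Of the 40 subcluster values, 32 were within 0.25 of 0, 6 were lower by at least that much and 2 higher. In subcluster 0 Arpc1a alone was past 0.25, at 97.2% of control cells and 90.6% of cells of the library labelled depleted (-0.26), where 9.87% of all detected genes were lower and 12.5% higher by that size. In subcluster 3 Arpc1a (100% of cells in both, -0.41) and Actg1 (100% in both, -0.56) were lower, where 15.1% of detected genes were lower and 13.8% higher. Actg1 was there at the 1.61st percentile of detected genes, the furthest out of all 40 values.

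Arpc5 and Actr2 were past 0.25 in opposite directions in subclusters 4 and 5. In subcluster 4 Arpc5 was in 92.5% of control cells and in 100% of those in the other library (0.34), and Actr2 in 87.5% and 90% (0.43), where 19.5% of detected genes were lower and 25.2% higher by 0.25. In subcluster 5 Arpc5 was in 100% of cells of both libraries (-0.50), Actr2 in 91.3% and 85.7% (-0.63) and Actg1 in 100% of both (-0.53), where 23.5% were lower and 20.3% higher. Arpc5 and Actr2 thus passed 0.25 in both directions within the fibroblasts, as did 19% of the genes detected in all 4 subclusters. Among the 10 genes, 6 did so over all 22 tables, where 36.1% of all genes listed in a cluster or detected in a subcluster did, and 74.6% of those with at least 6 values, the least that any of the 10 has. Of the 3 genes lower in subcluster 5, Arpc5 and Actg1 were inside the range from the 5th to the 95th percentile of its detected genes, -0.62 to 0.53, and Actr2 was at its edge, at the 4.99th percentile.

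The remaining subunits stayed within 0.25. Arpc3 was at -0.20, 0.06, -0.03 and -0.16 in subclusters 0, 3, 4 and 5, Arpc4 at -0.15, -0.21, 0.19 and 0.19, and Actr3 at 0.10, -0.19, -0.02 and -0.23, the last being the value nearest to 0.25 among those that stayed inside it. Actb was at 0.18, 0.17, 0.16 and -0.20, opposite in sign to Actg1 in subclusters 0 and 3. The median of the 10 genes was -0.09, -0.09, 0.03 and -0.18, where that of all detected genes lay between -0.01 and 0.03.

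**Figure D3:**
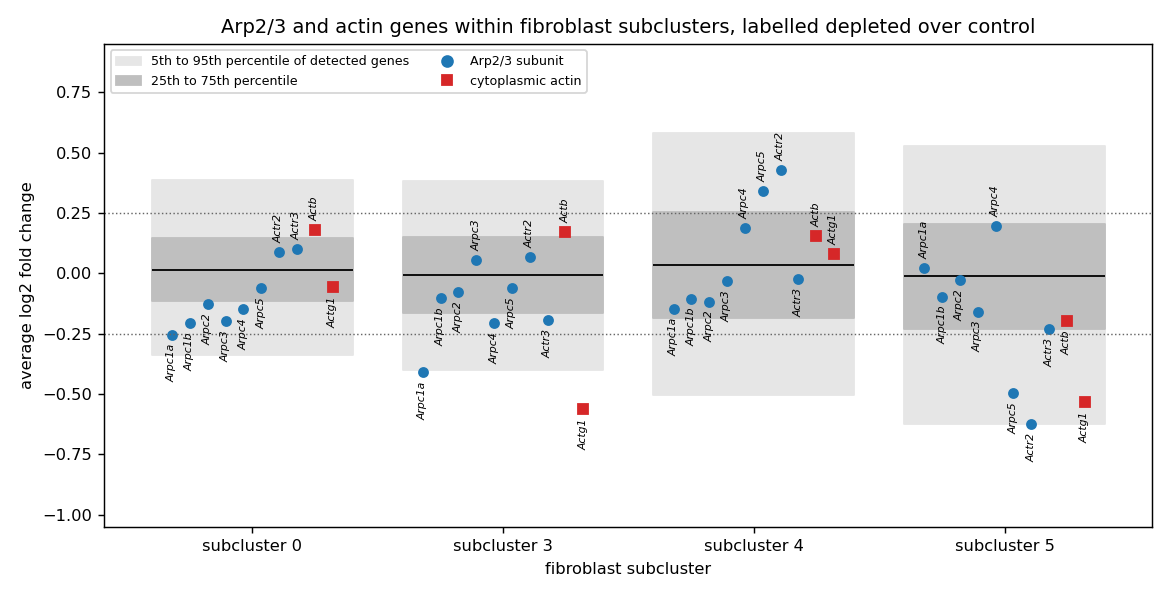
Deposited average log2 fold change (vertical axis) of each Arp2/3 subunit (blue circles) and actin (red squares) in the 4 fibroblast subclusters, over the range of all detected genes (light band, 5th to 95th percentile; dark band, 25th to 75th; line, median). Dotted lines mark 0.25 in either direction, and 32 of the 40 values lie between them.

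Markers of other cells were also listed, counted here without the markers of a cluster's own named cell type. Neutrophil markers (S100a8, S100a9, Retnlg and Csf3r) were lower in all 8 tables of other cells that list Arpc1b lower, with 15 lower and 0 higher listings, and in 5 of the 8 that do not, with 9 lower and 3 higher. Macrophage markers had 5 lower and 1 higher listings in the first set (6 tables) and 6 and 0 in the second (7 tables), and fibroblast markers 6 and 0 (9 tables) and 4 and 0 (8 tables). Markers of natural killer cells had 0 lower and 2 higher listings in the first set and 2 and 0 in the second, and those of endothelial cells 2 and 0 and 1 and 0. T cell, B cell, dendritic and cardiomyocyte markers had at most 1 listing in a direction in either set. In the unnamed clusters 6, 9 and 15 no markers were left out. The T cell listing was Cd3g in cluster 9, found in 94.1% of control cells and 97.9% of the others. The lower dendritic listing was Siglech in cluster 15, in 100% of cells of both libraries. These listings need not be markers of other cells.

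Some clusters also differed between the libraries in markers of cell type. In cluster 7, where 4 subunits and Actb were lower, the natural killer markers Klrb1c (5.1% of control cells and 32.1% of the others, 0.76) and Nkg7 (58.6% and 82.4%, 0.42) were higher, and Cd3d (-0.26) and Cd3g (-0.33) lower. In cluster 11 the dendritic cell marker Flt3 was higher (50% and 75%, 0.53), and the macrophage markers Csf1r (79.2% and 50%, -0.68), Lyz2 (76.4% and 45.8%, -2.15) and C1qb (46.5% and 18.8%, -1.22) were lower. In cluster 6, where Arpc1b was lowest, Tyrobp (33.3% and 13.8%, -1.14), Cd52 (-0.94), C1qb (-0.58) and Laptm5 (-0.45) were lower and Coro1a (0.31) higher. In cluster 10 Tyrobp (72.7% and 25.8%, -0.84), Lyz2 (-1.07), C1qa (-0.36) and Csf1r (-0.35) were lower and Cd3e (0.30) and Cd3g (0.50) higher. Pan-leukocyte markers had 9 lower and 5 higher listings in the tables that list Arpc1b lower, and 3 and 3 in the others. The part of such markers in the values of Arpc1b in these clusters was not tested.

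In the fibroblast subclusters Col1a1, Col1a2, Col3a1 and Dcn, which define fibroblasts, were in 100% of cells of both libraries. Pdgfra was less even, in 38.6% of control cells and 71.9% of cells of the other library in subcluster 0 (log2 fold change 1.35), 66.7% and 87% in subcluster 3 (0.76), 85% and 80% in subcluster 4 (0.39) and 87% and 81% in subcluster 5 (-0.06). Pdgfrb was at -0.05, 0.38, 0.71 and -0.22 in subclusters 0, 3, 4 and 5, found in 20 to 78.3% of control cells and 30.4 to 90.5% of the others. The summed share of the 6 fibroblast markers was 470.3 to 565.3% in the control library and 503.1 to 571.5% in the library labelled depleted. Neutrophil markers were also found in these cells, with a summed share of 208.7 to 240% in the control library and 103.1 to 133.3% in the library labelled depleted, lower in 15 of 16 values. Macrophage markers summed to 278.2 to 353.2% and 190.5 to 280% (lower in 18 of 24 values) and pan-leukocyte markers to 204.3 to 282.1% and 165.2 to 219.1% (lower in 14 of 20). T cell markers went the other way, at 13 to 24.1% in the control library and 31.2 to 73.8% in the library labelled depleted (3 of the 4 are in the tables). Cardiomyocyte markers summed to 17.3 to 35% and 3.1 to 20%, those of B cells to 10 to 17.3% and 0 to 15.6%, and those of endothelial cells to 8.6 to 47.5% and 14.3 to 53.1%. Natural killer and dendritic cell markers, of which only 1 of 3 and 2 of 3 have values there, summed to at most 10% in either library. By log2 fold change the same markers gave another picture, with 12 of 16 neutrophil values below 0 but 10 of 24 macrophage and 9 of 20 pan-leukocyte values. In subcluster 5, where Actr2, Actg1 and Arpc5 were lower, all 4 neutrophil and all 5 pan-leukocyte markers were above 0 by log2 fold change (Csf3r 0.46, Ptprc 0.47), although the share of S100a9 went from 91.3% to 38.1% there. Leukocytes are rich in Arpc1b, and the part of their transcripts in its values was not tested.

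The proteins around the complex were read from lists of related genes, to be set against the 52.3% of all listings that were lower, or 58.9% for genes in 90% or more of cells. Activators of the complex (WASP, WAVE and WASH families and partners) had 15 of 24 genes listed, with 24 lower and 17 higher listings (58.5% lower, median -0.26). The 3 listed most often were Abi3, a WAVE partner (2 lower, 4 higher, -0.41 to 0.45), Wipf1, which stabilizes WASP (3 lower, 2 higher, -0.43 to 0.38), and Hcls1, the cortactin of blood cells (2 lower, 2 higher, -0.39 to 0.33). Inhibitors and debranchers had 6 of 8 genes listed, with 10 lower and 6 higher listings (62.5% lower, median -0.26). Gmfg, which removes branches in leukocytes, made up 6 of the lower ones and 1 of the higher (-0.74 to 0.58), Coro7 was lower 1 time and higher 2 times, and Coro1a, the coronin of leukocytes, 1 time each. The paralogue Arpc5l was lower 2 times and higher 1 time, and Actr3b was not listed. No gene of these 3 lists was listed in fibroblast cluster 5.

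Genes that bind actin monomer and turn filaments over were evenly split, 22 lower and 22 higher, with 9 of 13 genes listed and a median of 0.00. Within the list, some genes kept to 1 direction over the cluster tables. Tmsb4x, which sequesters actin monomer, was lower in 8 cluster tables and higher in none (-0.66 to -0.28), but in fibroblast subclusters 0, 3, 4 and 5 it was at 0.45, 0.05, -0.48 and 0.30. Cap1, which recycles monomer, was higher in 8 cluster tables and lower in none (0.27 to 0.43), and at 0.44, 0.76, 0.31 and 0.13 in the same subclusters. Tmsb10, a relative of Tmsb4x, was mixed, at 3 lower and 4 higher (-0.73 to 0.98).

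Capping, elongation and crosslinking genes had 21 of 26 listed, with 48 lower and 30 higher listings (61.5% lower, median -0.28). Myl12b, a regulatory light chain of non-muscle myosin, was lower in 7 tables and higher in 1 (-0.49 to 0.35), the formin Fmnl1 lower in 4 and higher in 2 (-0.94 to 0.35) and tropomyosin Tpm4 lower in 2 and higher in 4 (-1.19 to 0.57). Of the other actins only Acta2, smooth muscle α-actin and a myofibroblast marker, was listed, in cluster 5 alone, from 21.8% of control cells to 40.1% (0.88), where Actg1 was lower. In subclusters 0, 3, 4 and 5 Acta2 was at 2.22, 0.94, -0.67 and 1.12.

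**Figure D4:**
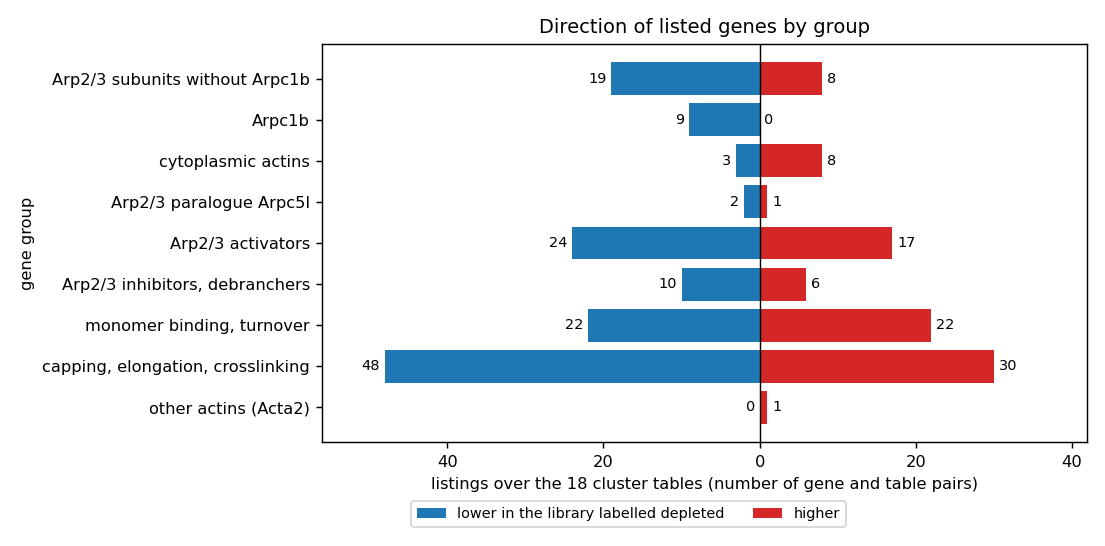
Number of gene and table pairs listed lower (blue, to the left) and higher (red, to the right) in the library labelled depleted over the 18 cluster tables, for the Arp2/3 subunits without Arpc1b, Arpc1b itself (chosen for its lower listings), the cytoplasmic actins and 6 lists of related genes. The 7 subunits stand at 19 lower and 8 higher, actins at 3 and 8, and monomer binding and turnover genes at 22 and 22.

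The genes whose pattern of listings was most like that of Arpc1b were found by dividing the tables with the same direction for both by the tables listing either, over the 18 tables. Lgals3, the galectin of macrophages, shared 8 of 12 tables (0.667), Tyrobp, an adaptor of myeloid receptors, 6 of 9 (0.667), Sumo2 7 of 11 (0.636), the glycolytic enzyme gene Eno1 6 of 10 (0.60) and the neutrophil gene S100a9 8 of 14 (0.571). No Arp2/3 subunit was among these 5. All tables compare the same 2 libraries, so shared directions across clusters are not independent.

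Beside Arpc1a, the nearest protein-coding genes on chromosome 5 were lower together with Arpc1b in 1 table at most. Gm4871 and 1700018F24Rik, before Arpc1a, were not listed. Pdap1, which overlaps the end of Arpc1b on the opposite strand, was lower 1 time and higher 2 times, Bud31 higher 1 time and Ptcd1 not listed. Cell Ranger was run with default settings, which count reads on the sense strand of a gene. On its own strand Arpc4 overlaps Ttll3, Arpc3 the lncRNA gene Gm42829 and Actg1 the miRNA genes Gm55891 and Mir6935. Reads where these overlap are uncertain. Annotated pseudogenes with at least 95% identity over at least 200 bases exist for 4 of the 10 genes, 4 copies for Actg1 and 1 each for Actr2, Actr3 and Arpc2, and none of these 7 copies is in any of the tables, so that values of these 4 genes are uncertain as far as reads were shared between copies.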

How the data were processed

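Interstitial ventricular cells were measured in 2 libraries, 1 per group, by droplet 3′ single-cell RNA sequencing. The authors aligned reads with Cell Ranger 6.1.1 to GRCm39 with added reporters, joined both libraries without equalizing depth, and in Seurat filtered, corrected (SCTransform, regressing out the mitochondrial share) and clustered the cells. The methods name no doublet caller. The authors then compared both libraries within each cluster by a Wilcoxon test over cells. Used here are the deposited fraction of cells with a corrected count in each library, printed as percent, and the deposited log2 fold change (pseudocount 1). The p-value columns that the authors deposited treat cells as replicates and were not used. Depth, barcodes and cell numbers of each cluster are not in the tables, so no counting error is given. Not analysed here were cluster 16 and 2 fibroblast subclusters (1 and 2).

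From these columns were counted the listings of each gene, lower and higher, beside the same count over all genes (Python 3.11.15, pandas 2.3.3, matplotlib 3.10.9). A call is a log2 fold change of at least 0.25 in size; in subclusters, genes in 25% or more of the cells of a library form the background. Counting steps were tested on simulated data. Cluster names follow the study. The genes, the related lists and the markers were chosen with earlier results of these data known. All 10 genes are named, and from each related list up to 3 genes listed in the most cluster tables, with the 5 most like Arpc1b and its 3 nearest protein-coding genes on each side. No test was made, since each group is 1 library. Alternatives were a size limit of 0.5, no limit, centring on the table's median, the direction of the share of cells, other sets of clusters, and genes in at least 90% of cells. A further list of related genes is not reported here.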

Additional observations from a re-analysis of the deposited data

Results flagged for a closer look

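Of the 10 genes, 6 passed 0.25 in both directions in different cell populations, and the difference between populations was not tested. Among all genes with at least 6 values, as each of the 10 has, 74.6% did so. Arpc1a had a log2 fold change of -0.55 in T cell cluster 10 and 0.28 in dendritic cluster 17. Arpc2 was at -0.46 in cluster 10 and 0.34 in cluster 9. Among fibroblasts, Arpc5 had values of -0.50 (subcluster 5) and 0.34 (subcluster 4), and Actr2 of -0.63 and 0.43 in the same subclusters. Actb was at -0.30 in T cell cluster 7 and 0.45 in T cell cluster 4. Actg1 was at -0.56 in fibroblast subcluster 3 and 0.68 in neutrophil cluster 1. Outliers among replicates could not be sought, since each group held 1 library.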

How the results depend on the processing

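No paired analysis was possible because there was only 1 library per group. No alternative was a test, and what they show is how far the counts rest on values near 0.25. At a size limit of 0.5, Arpc1b was lower in 1 table in place of 9, all 10 genes had 2 lower and 1 higher listings, the subunits 2 and 0, the actins 0 and 1, and the other 7 subunits had 1 and 0 where Arpc1b was lower. At that limit subcluster 0 had 0 lower, subcluster 3 had 1 lower and subcluster 4 had 0 higher. The related lists then had 0 lower and 0 higher listings (paralogues), 3 and 1 (activators), 1 and 2 (inhibitors), 5 and 2 (turnover) and 9 and 2 (capping and crosslinking). Centred on the median of the genes each table lists, which lay between -0.29 and 0.29 because smaller values are left out of those tables, Arpc1b was lower in 3 tables, all 10 genes had 7 lower and 8 higher listings, the subunits 7 and 5, the actins 0 and 3, and the other 7 subunits had 4 and 1 where Arpc1b was lower. By the direction of the share of cells, Arpc1b was lower in 5 tables, all 10 genes had 9 higher listings and the actins 0 higher. By share, subcluster 0 had 4 lower and 1 higher, subcluster 4 had 2 lower and 4 higher, and subcluster 5 had 1 higher. With no size limit the lower and higher counts were 7 and 3, 7 and 3, 5 and 5, and 8 and 2 in subclusters 0, 3, 4 and 5. Centred on all detected genes, the medians of the 10 genes were -0.11, -0.084, -0.0057 and -0.17. Without clusters 6, 9 and 10 the subunits had 5 higher listings. Leaving out the neutrophil clusters 1 and 18 moved no count by over 1.5 times. Among genes in at least 90% of cells the percent lower moved to 67.9 in cluster 0, 67.3 in cluster 4, 38.5 in cluster 17 and 16.8 in subcluster 0. What depth would limit is unknown, as the tables give no counts.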
